A study of Arabidopsis thaliana with 30 samples.

Results

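The 6 libraries described here hold RNA of sorted root cells of Arabidopsis thaliana in which the transcription factor PLT2 was either switched on with estradiol or left uninduced, and they are 6 of the 30 libraries of the series. They were chosen by their labels: 3 libraries after estradiol (numbered 1, 2 and 3) and 3 after DMSO, the solvent (numbered 1, 2 and 4). Both groups carry the same pair of transgenes. One, pCALS7::H2B-RFP, marks nuclei of sieve element cells in red through the promoter of CALS7, a callose synthase of sieve plates. The other, pNAC086(XVE)::PLT2-3YFP, makes PLT2 fused to yellow fluorescent protein when estradiol is present, under the promoter of NAC086, a gene of developing sieve elements. Seedlings 5 days old spent 6 h with 10 µM estradiol or with DMSO before roots were turned into protoplasts and sorted. The gates differed: DMSO cells were sorted for RFP alone, and estradiol cells for RFP and YFP together. Induction of PLT2, the estradiol itself and the choice of YFP-positive cells therefore cannot be told apart, and no library of cells given estradiol without the inducible transgene is among the 6. No label states that the 3 libraries of a group are separate cultures; the p-values cover only their spread, which may be technical.

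PLETHORA proteins such as PLT2 are AP2-type transcription factors that are abundant in the stem cells and dividing cells of the root tip and decline as cells mature. They promote division and hold back differentiation in the root meristem. A protophloem sieve element runs the opposite course within a short file of cells: APL switches on NAC045 and NAC086, these activate the NEN exonucleases, the nucleus is broken down, and the cell becomes a conducting tube with callose-lined sieve plates and phloem proteins.

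Total counts were 31426740 to 44837397 per library, and 24673 of the 33602 genes in the files had enough counts to be tested. Values below are CPM, that is, read counts relative to library size after scaling by TMM, a method that sets library totals by the bulk of the genes. The DMSO 2 library stood apart from the other 5. It had a count in 21340 genes against 27617 and 28426 in the other DMSO libraries and 29277 to 30143 in the estradiol libraries, it lay alone at one end of the first principal component (61.1% of the variance), and it was the lowest of all 6 libraries for 39.2% of the tested genes.

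Markers of sieve elements were present in every library: APL was at 509 to 2180 CPM, NAC045 at 319 to 3415 CPM and CALS7 at 1733 to 5680 CPM. Markers of other cells were also present. The summed CPM of 5 root cap genes was 52.5 to 450 among DMSO libraries and 128 to 342 among estradiol libraries. That of 7 endodermis and cortex genes was 1.95 to 35.2 and 7.12 to 31.1, with MYB36 at 0 in DMSO 2. The sum of 6 root hair and epidermis genes was 18.6 to 45.6 with DMSO and 12.0 to 43.6 with estradiol, with COBL9 and RHD6 at 0 in DMSO 2 and DMSO 4. The sum of 7 green tissue genes was 2.89 to 7.10 with DMSO and 6.94 to 8.24 with estradiol. The companion cell transporter SUC2 was at 1.94 to 5.60 CPM in DMSO and 2.68 to 17.6 CPM in estradiol libraries. The sum of 10 companion cell and phloem transport genes was 814 to 1660 with DMSO and 264 to 562 with estradiol, without overlap. Most of it was the proton pump gene AHA3, at 690 to 1509 and 205 to 358 CPM. The sum of 20 xylem differentiation genes was 38.4 to 70.3 with DMSO and 24.3 to 47.0 with estradiol. XCP2 among them was at 11.8 to 12.3 and 1.58 to 3.16 CPM, without overlap. The groups overlapped in SUC2 and in each sum other than that of the companion cell and phloem transport genes. The part of these other cells in the results was not tested.

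PLT2, the induced gene (AT1G51190, chromosome 1), was at 7.06, 6.88 and 10.7 CPM in DMSO 1, 2 and 4 and at 16775, 55471 and 22483 CPM in estradiol 1, 2 and 3. The groups were far apart, and estradiol 2 was the highest. PLT2 alone took 2.01%, 7.07% and 2.59% of all counts in the estradiol libraries. Its log2 fold change was 11.91 ± 1.14 (SE; adjusted p = 0.0166 by edgeR's quasi-likelihood test), and its adjusted p ran from 0.0175 to 0.123 when 1 library was left out at a time. Reads from the transgene and from the PLT2 gene itself cannot be told apart in these counts.

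Genes that rose with estradiol included the wall and growth genes EXL3, COBL1 and XTH9, the motor gene KICP-02, the polarity gene ROP9 and the S-phase genes MCM5 and E2F3. Genes that fell included the phloem protein genes SEOR1 and PP2-A9 and the phospholipase genes PLC5 and NPC4. In all, edgeR called 162 genes (0.657% of those tested), 64 higher (0.259%) and 98 lower (0.397%). DESeq2 called 1157 genes higher (5.65% of 20476) and 1913 lower (9.34%), among them all 162. The edgeR calls lay close to the threshold, with adjusted p above 0.04 for 145 of the 162. They were lost almost entirely when single libraries were left out: 0 genes were called without DMSO 2, 1 without DMSO 4, 4 without estradiol 1, 3 without estradiol 2 and 6 without estradiol 3, while 1833 were called without DMSO 1. Without DMSO 2, DESeq2 still called 1925 genes and 4624 had an unadjusted edgeR p under 0.05. With every library kept, 2008 of the 24673 tested genes were higher and 3131 lower at an unadjusted edgeR p under 0.05. Those are the background for list counts at that threshold below. In CPM alone, 17.7% of tested genes were higher in every estradiol library than in every DMSO library and 14.5% were lower in every one. These 2 shares are the background for the counts without overlap below, where no library is left out.

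**Figure D1:**
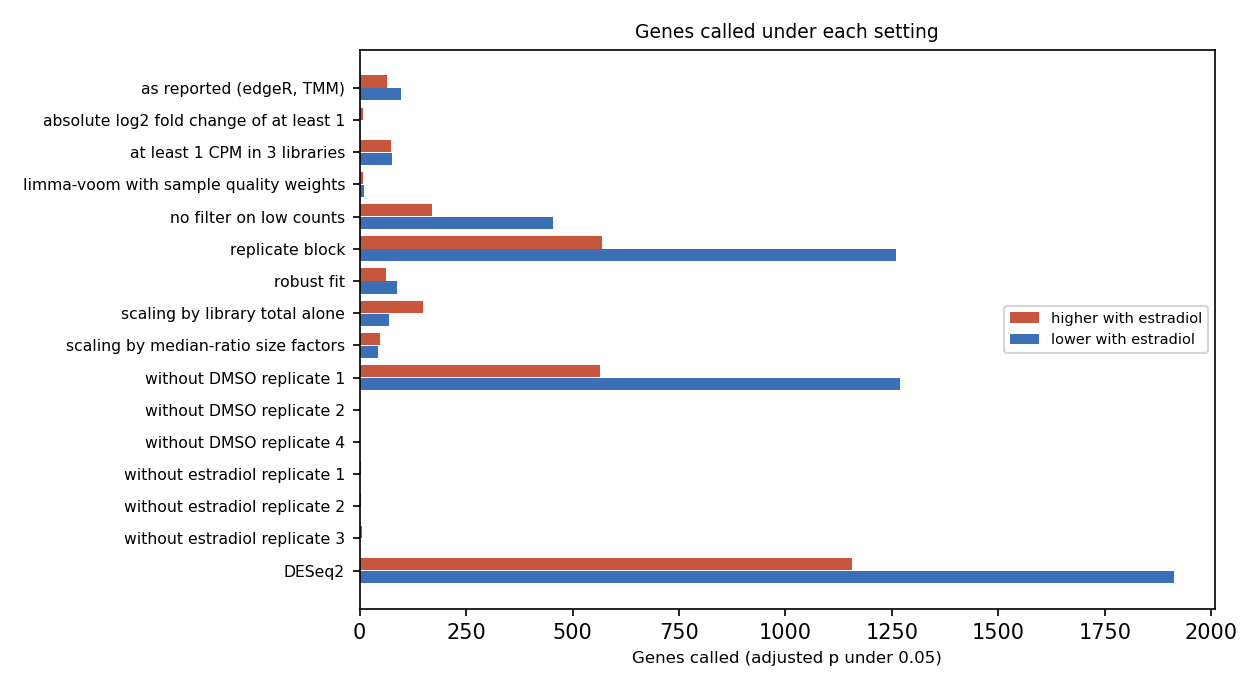
Number of genes called at an adjusted p under 0.05 (x axis, linear) under each setting (rows), higher with estradiol in red and lower in blue. The reported fit gave 64 and 98, DESeq2 gave 1157 and 1913, and leaving out DMSO 2 gave 0 and 0.

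The gene with the smallest adjusted p was EXL3, an EXORDIUM-like gene of a family tied to brassinosteroid-promoted growth. It was at 5.51, 3.46 and 4.53 CPM in DMSO and at 136, 118 and 89.7 CPM in estradiol libraries, a log2 fold change of 4.66 ± 0.31 (SE; edgeR adjusted p = 0.00621). Its relative EXL5 rose as well, from 3.37 to 6.27 CPM to 43.4 to 56.2 CPM (log2 fold change 3.31). In both genes the lowest estradiol library was far above the highest DMSO library. Genes were named among the largest rises and falls only if their groups were apart, so a gap is part of the choice.

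Other wall and surface genes were among the 15 largest rises with a gene symbol. COBL1, a COBRA-like protein of the cell surface, was at 2.34, 3.33 and 2.88 CPM in DMSO and at 61.6, 102 and 45.5 CPM in estradiol libraries (log2 fold change 4.62). XTH9, which cuts and rejoins xyloglucan of the wall, was at 4.88, 2.75 and 6.87 CPM in DMSO and at 91.6, 36.2 and 69.7 CPM in estradiol libraries (log2 fold change 3.76). ENODL2, an early nodulin-like protein, rose by 3.55 on the log2 scale. The list of 14 tested wall-loosening genes did not follow these rises: its median log2 fold change was -0.97, and 10 were negative. Of the 14, 2 were higher (14.3%) and 3 lower (21.4%) without overlap, against 17.7% and 14.5% of all tested genes. The median was -0.0045 without DMSO 1 and -0.51 without estradiol 2. DESeq2 called 1 higher and 3 lower. edgeR called XTH9, which rose, and the expansin EXPA1, which fell. EXPA1 was at 180, 362 and 241 CPM in DMSO and at 33.3, 18.9 and 57.7 CPM in estradiol libraries (log2 fold change -2.83, edgeR adjusted p = 0.0481). The 2 genes thus moved in opposite directions. Neither overlapped between the groups, which held for all 162 called genes.

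Further genes among the rises have products that bind the cytoskeleton or set cell polarity. KICP-02, a microtubule motor protein, went from 17.6, 10.7 and 11.8 CPM to 132, 151 and 184 CPM (log2 fold change 3.54). FIM1, a fimbrin that bundles actin, rose by 2.96, IQD7, of a calmodulin-binding family linked to microtubules, by 3.06, and the microtubule crosslinker MAP65-2 by 2.21 on the log2 scale. Called genes with such products also fell, among them NET2D (log2 fold change -2.22) and the calponin homology gene AT5G55400 (-2.74), both named, like MAP65-2, after their values were seen. ROP9, one of the small GTPases that set polarity in plant cells, was at 0.440, 0.621 and 0.657 CPM in DMSO and at 5.36, 8.30 and 6.07 CPM in estradiol libraries (log2 fold change 3.52). It was the only one of 16 tested ROP and RopGEF genes on the list that edgeR called. The RopGEF gene ROPGEF10, which is not on that list and was named after its value was seen, fell (log2 fold change -1.92).

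The remaining large rises were of mixed roles. MLS, malate synthase of the glyoxylate cycle, had 8, 2 and 1 reads in DMSO and 163, 641 and 309 reads in estradiol libraries. Its fitted log2 fold change of 5.99 rests on those few DMSO reads. NUC-L2, a nucleolin of the nucleolus, rose from 0.621 to 0.986 CPM to 5.76 to 14.3 CPM (log2 fold change 3.56). The transcription factor gene NAC049 rose by 3.10, the chromatin remodeller CHR40 by 2.87, the ABC transporter ABCG3 by 2.84 and MEE47 by 2.86 on the log2 scale.

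**Figure D2:**
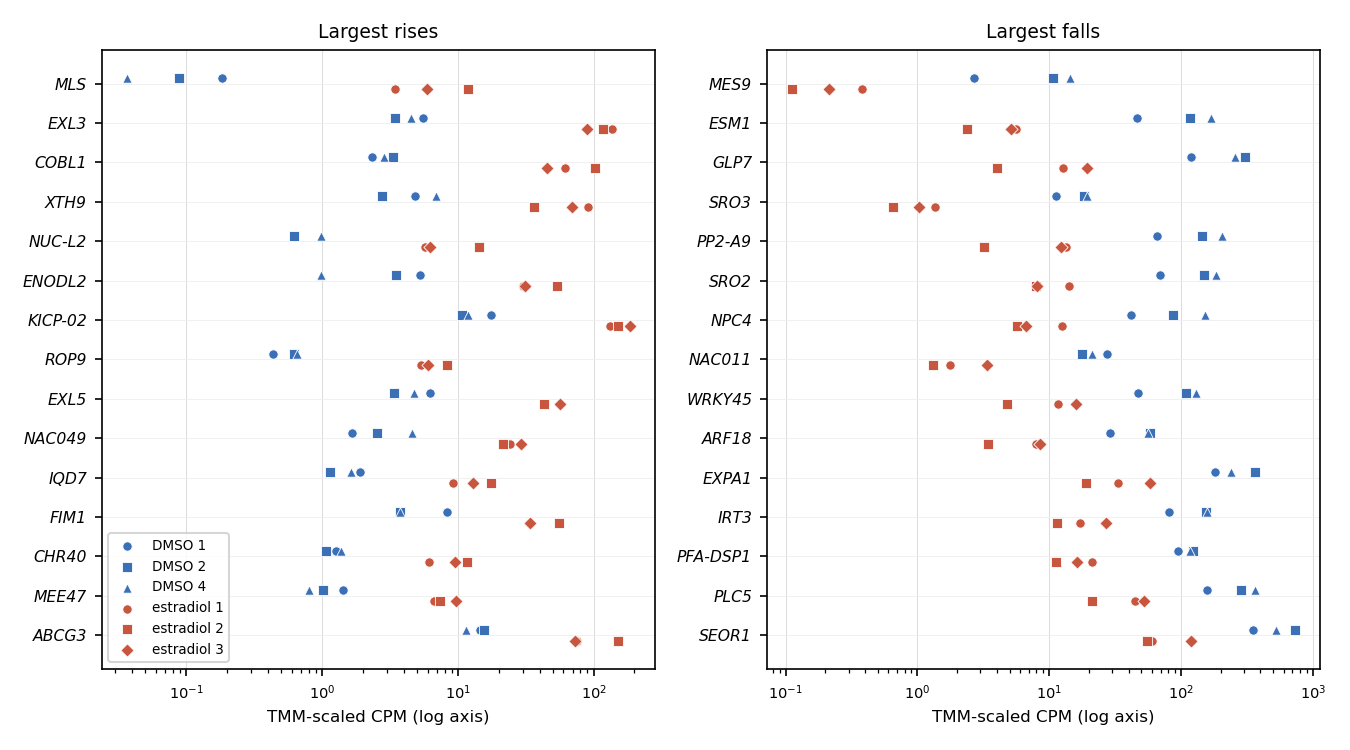
TMM-scaled CPM (log axis) in each library of the 15 largest rises and 15 largest falls with a gene symbol, DMSO libraries in blue and estradiol libraries in red. These genes were chosen among called genes whose groups do not overlap, so the gap is part of the choice.

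The largest falls included genes of the phloem. SEOR1, which forms the protein filaments of sieve elements, was at 349, 729 and 524 CPM in DMSO and at 60.7, 54.8 and 118 CPM in estradiol libraries (log2 fold change -2.78 ± 0.43 SE, edgeR adjusted p = 0.0481). PP2-A9, of the phloem protein 2 family, was at 66.2, 144 and 205 CPM in DMSO and at 13.4, 3.21 and 12.3 CPM in estradiol libraries (log2 fold change -3.85). PLC5, a phosphoinositide-specific phospholipase C, fell from 157, 286 and 366 CPM to 44.7, 20.9 and 52.2 CPM (log2 fold change -2.78). Estradiol 2 was the lowest of the 3 estradiol libraries in all 3 genes.

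The other large falls were of mixed roles. The non-specific phospholipase C gene NPC4 fell by 3.50 and PFA-DSP1, a protein phosphatase, by 2.79 on the log2 scale. SRO3 was at 11.2, 18.3 and 19.3 CPM in DMSO and at 1.36, 0.650 and 1.03 CPM in estradiol libraries (log2 fold change -4.01), and SRO2, of the same family related to RCD1, fell by 3.75. ESM1, which modifies glucosinolate breakdown, fell by 4.66 and the germin-like GLP7 by 4.24. MES9, a methyl esterase, had 117, 241 and 394 reads in DMSO and 18, 6 and 11 reads in estradiol libraries. Transcription factor genes that fell were NAC011 (log2 fold change -3.37), WRKY45 (-3.13) and ARF18 (-2.85), the last an auxin response factor. IRT3, a metal transporter, fell by 2.83. Estradiol 2, the library with the most PLT2, was the lowest library for 82 of the 98 called lower genes (83.7%) and the highest for 50 of the 64 called higher genes (78.1%). Among all genes whose groups did not overlap these shares were 65.4% and 53.4%.

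Across the sieve element maturation programme, 9 of 14 genes were lower in every estradiol library than in every DMSO library (64.3%, against 14.5% of all tested genes) and 1 was higher. The median log2 fold change was -1.52, against 0.09 over all tested genes. edgeR called SEOR1 alone, and DESeq2 called 9 lower and 1 higher. Among the regulators, APL was at 742, 2180 and 1272 CPM in DMSO and at 509, 524 and 704 CPM in estradiol libraries (log2 fold change -1.27, edgeR adjusted p = 0.163). NAC045 was at 1511, 2846 and 3415 CPM in DMSO and at 659, 319 and 746 CPM in estradiol libraries (-2.17, adjusted p = 0.0702). NAC086, whose promoter drives the transgene, was at 1566, 2097 and 2490 CPM in DMSO and at 837, 327 and 1023 CPM in estradiol libraries (-1.49, adjusted p = 0.141). None of the 3 passed edgeR's threshold, and in none did the groups overlap.

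The NAC factors NAC020 and NAC057 had log2 fold changes of -1.93 and -1.63, again with no overlap. The exonucleases that act in the clearing of the cell showed the same order. NEN4 was at 662, 1114 and 1688 CPM in DMSO and at 373, 144 and 454 CPM in estradiol libraries, with a log2 fold change of -1.83 (edgeR adjusted p = 0.107). NEN1 and NEN2 had values of -1.52 and -1.64, and NEN3 had 0.34 with overlapping groups at 3.37 to 14.3 CPM. Not all structural genes followed. CALS7, whose promoter drives the red marker that both gates used, was at 2566, 2531 and 5680 CPM in DMSO and at 2452, 1733 and 3413 CPM in estradiol libraries and overlapped (log2 fold change -0.50, adjusted p = 0.645). SEOR2 (-1.53) and the sieve element protein gene ENODL9 (-0.98) overlapped too. CHER1, a choline transporter needed for sieve plates, lay the other way at 19.2, 27.7 and 17.5 CPM in DMSO and 56.6, 85.7 and 60.5 CPM in estradiol libraries (log2 fold change 1.66, edgeR adjusted p = 0.0505). In bulk samples, fewer cells at a late stage and less RNA per cell cannot be told apart.

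Without DMSO 2, 9 of the 14 genes were lower in every estradiol library than in the other DMSO libraries, against 17.6% of all tested genes. The median was then -1.43, and DESeq2 called 5 of the 14 lower. Without DMSO 4, DESeq2 called 4. With scaling by library totals alone, which moves the median of all tested genes from 0.09 to 0.61, the list's median was -0.95.

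**Figure D3:**
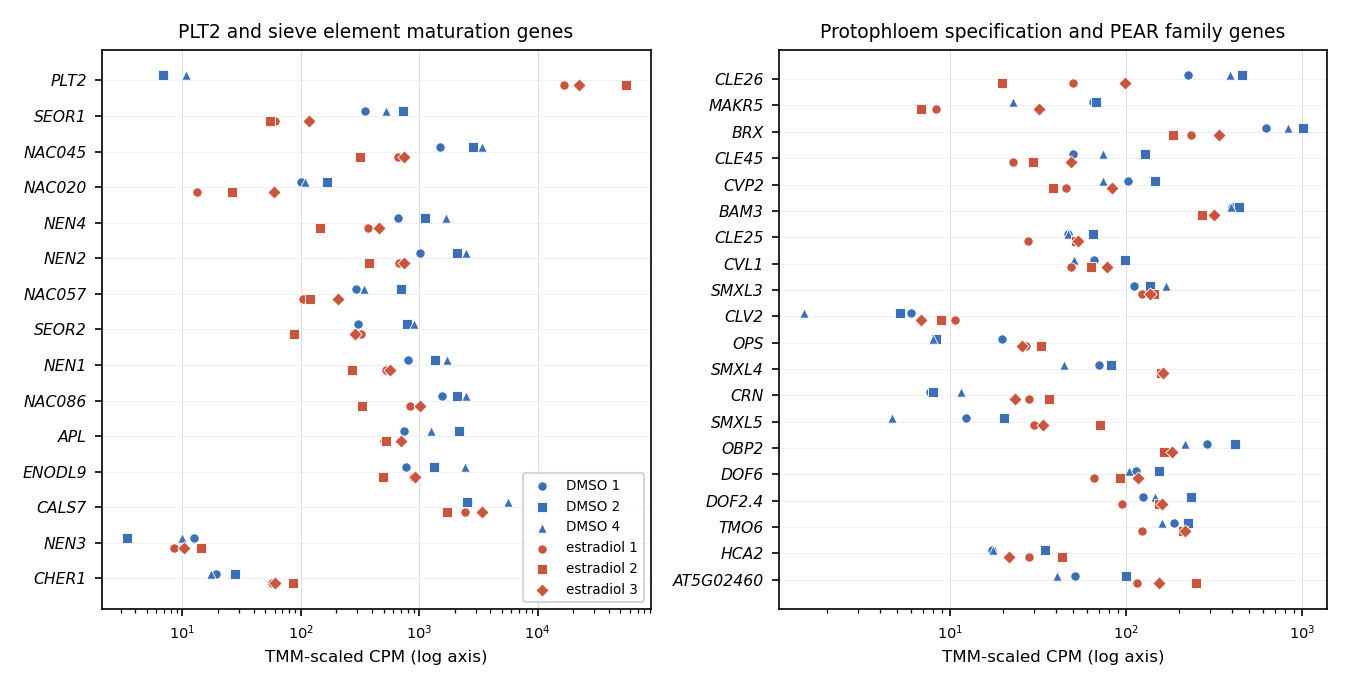
TMM-scaled CPM (log axis) in each library for PLT2 with 14 sieve element maturation genes (left) and for 14 protophloem specification and 6 PEAR family genes (right), DMSO in blue and estradiol in red. In 9 of the 14 maturation genes all red points lie left of all blue points, and CHER1 and PLT2 lie the other way.

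Upstream of maturation, the genes that specify protophloem were split. Of 14 tested, 5 were higher (35.7%) and 4 lower (28.6%) without overlap, against 17.7% and 14.5% of all tested genes. edgeR called none, with 4 higher and 5 lower at an unadjusted p under 0.05, and DESeq2 called 4 higher and 3 lower. The median log2 fold change was -0.21 (0.35 with scaling by library totals). The lower ones were on the CLE peptide pathway that restrains protophloem differentiation and on its opponent. The peptide gene CLE26 was at 224, 458 and 388 CPM in DMSO and at 50.1, 19.7 and 98.5 CPM in estradiol libraries (log2 fold change -2.67, edgeR adjusted p = 0.0661). The peptide gene CLE45 had -1.32, its receptor gene BAM3 -0.54, and BRX, a membrane protein that promotes protophloem differentiation, -1.70. BRX was at 628, 1010 and 832 CPM in DMSO and at 235, 185 and 338 CPM in estradiol libraries. MAKR5, which acts with BAM3, had -1.73 with overlapping groups.

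The higher ones included both members of a receptor pair needed to sense CLE peptides in the root. CRN was at 7.68, 7.95 and 11.5 CPM in DMSO and at 27.9, 36.5 and 23.4 CPM in estradiol libraries (log2 fold change 1.69, edgeR adjusted p = 0.0510), and CLV2 had 1.06. OPS, which promotes sieve element differentiation opposite to BAM3, had 1.24. SMXL4 and SMXL5, early promoters of phloem formation, lay higher as well, while their relative SMXL3 had -0.04 with overlapping groups. SMXL5 had 1.86. SMXL4 was at 70.1, 81.8 and 44.4 CPM in DMSO and at 162, 158 and 163 CPM in estradiol libraries (edgeR adjusted p = 0.0629). CVP2 and CVL1, phosphatases of phosphoinositides, and CLE25 overlapped, with values of -0.95, -0.17 and -0.25.

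Of the PEAR family, Dof transcription factors that promote radial growth from the protophloem, 4 of 6 overlapped between groups. edgeR called none, with 1 higher and 1 lower at an unadjusted p under 0.05, and DESeq2 called 1 higher. DOF2.4, also known as PEAR1, was at 125, 234 and 146 CPM in DMSO and at 94.7, 154 and 161 CPM in estradiol libraries (log2 fold change -0.30, edgeR adjusted p = 0.663). TMO6, DOF6 and HCA2 had -0.05, -0.44 and 0.43. OBP2 lay lower without overlap (-0.84). The Dof-type gene AT5G02460 lay higher, at 51.1, 99.4 and 40.3 CPM in DMSO and 116, 252 and 154 CPM in estradiol libraries (1.45, adjusted p = 0.109).

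The other PLETHORA and stem cell niche genes gave no call by edgeR, with 2 higher at an unadjusted p under 0.05, and 1 call by DESeq2. PLT1 was at 9.32, 0.0888 and 10.2 CPM in DMSO and at 16.6, 5.29 and 4.89 CPM in estradiol libraries, and PLT3 was at 36.2, 17.0 and 34.8 CPM and at 32.3, 17.1 and 26.5 CPM. Both overlapped. PLT7 had 1, 0 and 0 reads in DMSO and 10, 48 and 38 reads in estradiol libraries (edgeR adjusted p = 0.0876), so it was near the limit of counting in DMSO. WOX5, which marks the quiescent centre, was at 0.0888 to 1.06 CPM in DMSO and 0.148 to 1.16 CPM in estradiol libraries. Of the 14 PLETHORA and stem cell niche genes tested, 4 were higher without overlap (28.6%, against 17.7% of all tested genes) and none lower. Among them TPST, the enzyme that sulfates the root growth peptides which maintain PLT proteins, was at 36.2, 47.6 and 28.1 CPM in DMSO and at 88.7, 71.2 and 86.3 CPM in estradiol libraries (log2 fold change 1.14, edgeR adjusted p = 0.0697). RGF1 and RGF3, genes of such peptides, had 0.84 and 1.18, and SCR and SHR, which pattern the niche, had -0.04 and -0.10. With DMSO 2 left out, 4 of the 14 were higher without overlap (28.6%, against 20.9% of all tested genes). In that case 2 were lower (14.3%, against 17.6%). The list's median log2 fold change was 0.49 with every library, -0.05 without DMSO 2 and 1.02 without DMSO 4.

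DNA replication genes had the highest median log2 fold change of all the lists looked at. Of 26 tested, 17 were higher in every estradiol library than in every DMSO library (65.4%, against 17.7% of all tested genes) and none was lower, with a median log2 fold change of 1.36. edgeR called 2, MCM5 and E2F3, and DESeq2 called 13 higher and none lower. MCM2 to MCM7 form the helicase that opens DNA at origins. MCM5 was at 25.5, 16.2 and 24.0 CPM in DMSO and at 62.2, 131 and 90.0 CPM in estradiol libraries (log2 fold change 2.11 ± 0.34 SE, edgeR adjusted p = 0.0481). MCM3 had 2.39, MCM4 1.90, MCM6 1.81, MCM2 1.71 and MCM7 1.57. None of the 6 overlapped between the groups. E2F3, a transcription factor of the E2F family that switches on S-phase genes, was at 7.68, 6.44 and 12.1 CPM in DMSO and at 40.6, 51.5 and 50.1 CPM in estradiol libraries (log2 fold change 2.44 ± 0.31 SE, edgeR adjusted p = 0.0412).

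The origin recognition genes ORC1B, ORC2 and ORC3 had log2 fold changes of 1.60, 1.71 and 1.88, the licensing factors CDT1A and CDT1B 0.84 and 1.45, and ETG1, a replisome factor, 1.58. PCNA2 (0.03), ORC6 (0.08) and TSO2, a ribonucleotide reductase subunit (0.23), overlapped and were close to no difference. In 16 of the 17 genes without overlap (94.1%), estradiol 2 was the highest library, against 53.4% of all genes without overlap on that side. Other lists differed in this. Estradiol 2 was highest in 2 of 7 such ribosome biogenesis genes (28.6%), 4 of 10 of mitosis (40%) and 1 of 3 D-type cyclins (33.3%). It was highest in 3 of 5 protophloem specification genes (60%) and in 4 of 4 ROP and RopGEF genes. With DMSO 2 left out, 17 of the 26 lay higher without overlap, against 20.9% of all tested genes, the median was 1.03 and DESeq2 called 11. Without estradiol 2, DESeq2 called 6.

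Promoters of these genes were searched for E2F sites, since E2F factors are known to act on S-phase genes in Arabidopsis. The motifs TTTCCCGC, TTTGGCGC, TTTCGCGC and TTTGCCGC were looked for on both strands in the 250 bases upstream of each gene's start in the RefSeq TAIR10.1 assembly. At least 1 match was found for 11 of 26 replication genes (42.3%) and for 467 of 24374 tested genes (1.92%). A match was found for 9 of the 17 replication genes that lay higher without overlap and for 2 of the 9 that overlapped. Of all tested genes higher without overlap 3.59% had one, and of those lower without overlap 0.727%. E2F3 and MCM7 had none in that window. The stretches around the match in the 5 MCM genes that had one are shown 5′ to 3′ on the gene's strand, with the match in capitals. In these 5 genes no other gene reaches into the window.
MCM2 (chr1:16970184-16970213, plus strand, 14 bases upstream): caaattggcgccaataTTTCCCGCctaatc
MCM3 (chr5:18773853-18773892, minus strand, 170 bases upstream): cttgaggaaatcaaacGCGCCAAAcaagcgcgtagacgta
MCM4 (chr2:7130741-7130780, minus strand, 35 bases upstream): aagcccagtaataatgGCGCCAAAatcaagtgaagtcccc
MCM5 (chr2:3527501-3527535, minus strand, 19 bases upstream): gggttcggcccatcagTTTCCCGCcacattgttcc
MCM6 (chr5:18010690-18010729, minus strand, 46 bases upstream): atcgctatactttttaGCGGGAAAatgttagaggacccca
MCM2 and MCM5 hold TTTCCCGC and MCM6 holds it on the opposite strand, while MCM3 and MCM4 hold TTTGGCGC on the opposite strand. These are matches of letters, not measured binding.

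Genes of mitosis lay higher in part. Of 28 tested, 10 were higher without overlap (35.7%, against 17.7% of all tested genes) and 1 lower (3.57%, against 14.5%). The median log2 fold change was 0.82. edgeR called none (6 higher and 1 lower at an unadjusted p under 0.05), and DESeq2 called 3 higher and 1 lower. The B-type cyclin CYCB2;3 was at 4.56, 3.51 and 4.71 CPM in DMSO and at 17.4, 11.7 and 9.81 CPM in estradiol libraries (log2 fold change 1.60, edgeR adjusted p = 0.0675). CDKB1;1, a plant mitotic kinase, had 1.39. CYCB1;3 lay the other way at -1.64. The cytokinesis genes KN and HIK overlapped, and their highest values, 12.1 and 11.8 CPM, were both in estradiol 1. Without estradiol 1 the median of the list was 0.42. The DESeq2 calls on the higher side numbered 1 without estradiol 1 and 1 without estradiol 3. The count of 10 was 15 (53.6%) without DMSO 1 or without estradiol 2, against 25.9% and 20.8% of all tested genes. The count of 1 lower was 4 (14.3%), 2 (7.14%) and 2 (7.14%) without DMSO 1, 2 and 4. Those shares are below the 20.5%, 17.6% and 22.9% of all tested genes. No match to the E2F motifs was found upstream of any of the 28.

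Among D-type cyclins, which drive entry into the cycle, none of 10 was called by edgeR or DESeq2, and 1 was lower at an unadjusted edgeR p under 0.05. CYCD2;1, CYCD3;2 and CYCD3;3 lay higher without overlap, with log2 fold changes of 0.45, 0.51 and 0.70. CYCD3;1 lay lower (-0.65), and CYCD6;1, a cyclin of formative divisions, overlapped at 11.9 to 37.0 CPM in DMSO and 19.0 to 39.6 CPM in estradiol libraries.

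Inhibitors of the cycle and genes of the endocycle, in which DNA is copied without division, were split. Of 20 tested, 15 had a negative log2 fold change (10 with scaling by library totals), 9 were lower without overlap (45%, against 14.5% of all tested genes) and 2 higher, and the median log2 fold change was -0.54, or -0.06 with scaling by library totals. edgeR called none (1 higher and 6 lower at an unadjusted p under 0.05), and DESeq2 called 6 lower and 1 higher. SIM, a kinase inhibitor that promotes the endocycle, was at 37.5, 54.0 and 39.4 CPM in DMSO and at 9.53, 4.16 and 14.5 CPM in estradiol libraries (log2 fold change -2.21, edgeR adjusted p = 0.0588). SMR7, of the same family, was at 7.10, 22.0 and 24.6 CPM in DMSO and at 3.11, 3.07 and 4.10 CPM in estradiol libraries (-2.38, adjusted p = 0.0591). CCS52B, an activator of the anaphase-promoting complex, had -1.80 and the inhibitor KRP6 -1.12. WEE1, a checkpoint kinase, lay higher, at 2.91, 3.24 and 4.49 CPM in DMSO and 10.9, 15.9 and 7.97 CPM in estradiol libraries (1.71, adjusted p = 0.0703). Without DMSO 2, 11 of the 20 were lower without overlap, against 17.6% of all tested genes. A match to the E2F motifs was found upstream of 2 of the 20 (10%), against 1.92% of all tested genes.

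**Figure D4:**
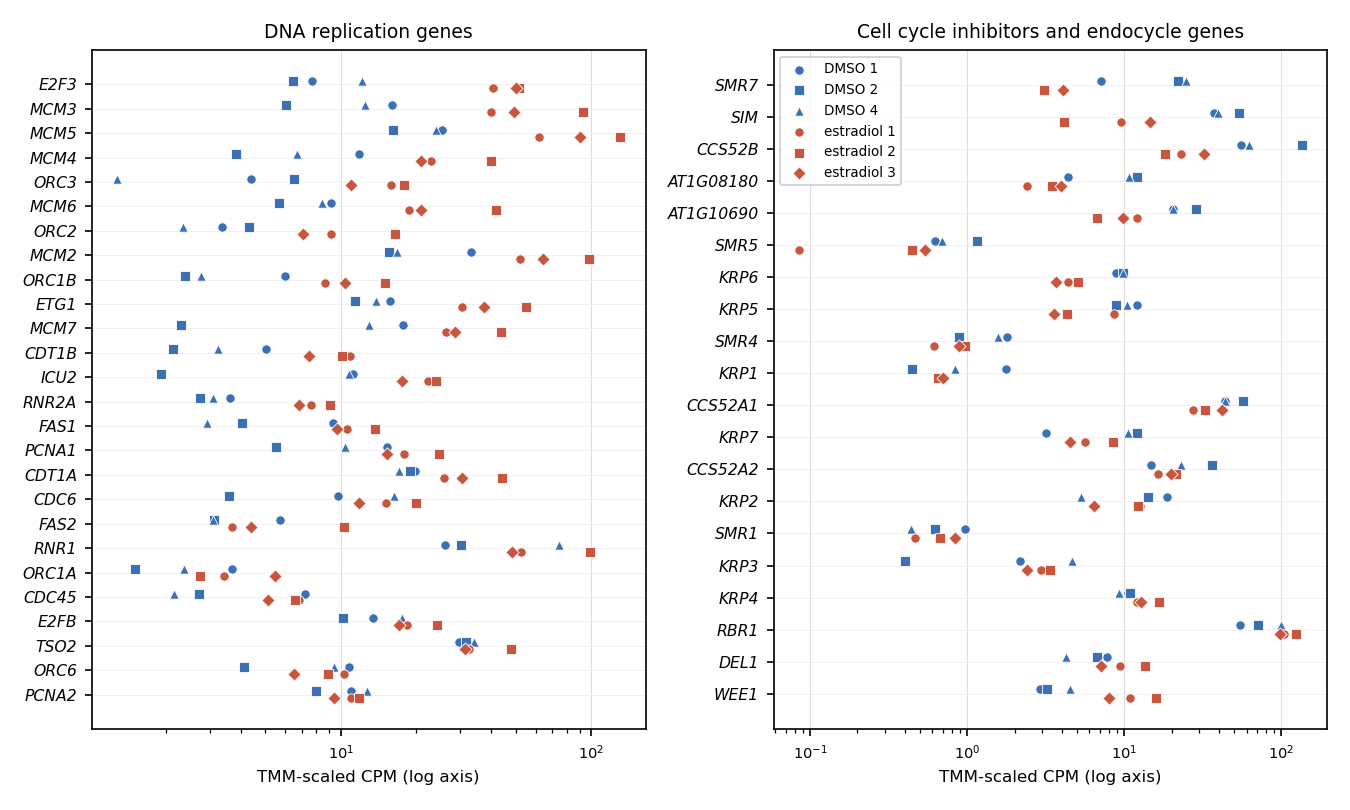
TMM-scaled CPM (log axis) in each library of 26 DNA replication genes (left, largest positive fold change on top) and 20 cell cycle inhibitor and endocycle genes (right, largest negative on top), DMSO in blue and estradiol in red. On the left 17 genes have all red points to the right of all blue points, and on the right 9 genes have them to the left.

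Ribosome biogenesis genes were on the higher side in 7 of 14 without overlap (50%, against 17.7% of all tested genes), with a median log2 fold change of 0.98. NUC-L2 rose, and EBP1, a growth regulator, was at 42.8, 15.9 and 27.2 CPM in DMSO and at 85.8, 68.2 and 75.1 CPM in estradiol libraries (1.42, edgeR adjusted p = 0.0814). The list's summed CPM was 536, 108 and 333 in DMSO and 935, 513 and 719 in estradiol libraries, with DMSO 1 above estradiol 2. The count of 7 was 13 (92.9%) without DMSO 1 and 13 without estradiol 2, against 25.9% and 20.8% of all tested genes. It was 7 without DMSO 2 (50%, against 20.9%), with a median of 0.66. The median was 1.49 without DMSO 1, and DESeq2, which called 3 higher, called 7 without DMSO 1, 1 without estradiol 1 and 2 without each other library. Of 307 ribosomal protein genes, chosen by their annotated product, 133 were higher and 9 lower without overlap (median 0.49). Other product families were 270 pentatricopeptide repeat genes, with 99 higher and 12 lower without overlap, 47 core histones with 3 and 13, 70 heat shock proteins with 8 and 13, and 28 kinesins with 5 and 5. The shares of all tested genes were 17.7% and 14.5%. In these families edgeR called 1 pentatricopeptide repeat gene and 1 heat shock gene, both lower, and no other member. DESeq2 called 20 ribosomal protein and 28 pentatricopeptide repeat genes higher, with 3 and 6 lower. Core histones had 0 higher and 7 lower, heat shock proteins 2 and 10, and kinesins 1 and 1. The families' counts without overlap were not repeated with a library left out.

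All 15 tested wound, heat and stress genes had a negative log2 fold change, with a median of -1.23; with scaling by library totals 13 did, with a median of -0.76. The groups did not overlap in 4 of them (26.7%, against 14.5% of all tested genes on the lower side). That count was 9 (60%, against 22.9% of all tested genes) without DMSO 4 and 7 (46.7%, against 16.5%) without estradiol 2. It was 6 (40%) without DMSO 2, estradiol 1 or estradiol 3, against 17.6%, 17.1% and 18.6%. It stayed at 4 (26.7%) without DMSO 1, against 20.5%. edgeR called none (3 lower at an unadjusted p under 0.05), and DESeq2 called 3 lower (1 without DMSO 1, 1 without DMSO 2, 2 without estradiol 2 and 5 without estradiol 3). The levels varied widely within groups: the jasmonate repressor gene JAZ1 was at 761, 401 and 114 CPM in DMSO and at 86.9, 23.7 and 220 CPM in estradiol libraries, and HSP70 was at 550, 2089 and 2731 CPM and at 190, 2593 and 406 CPM.

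Hormone and tissue genes gave single differences. The cytokinin response regulator ARR4 was at 213, 418 and 384 CPM in DMSO and at 75.9, 34.7 and 101 CPM in estradiol libraries (log2 fold change -2.26, edgeR adjusted p = 0.0579), and the cytokinin oxidase CKX7 lay higher (2.39, adjusted p = 0.0629). The auxin response gene IAA2 had -2.39 (adjusted p = 0.0688). Of 20 xylem differentiation genes the protease gene XCP2 fell, from 12.3, 11.8 and 11.9 CPM to 3.16, 1.58 and 2.61 CPM (log2 fold change -2.29, edgeR adjusted p = 0.0486), and its relative XCP1 had -2.26. No companion cell gene of 10 was called by edgeR (2 lower at an unadjusted p under 0.05), and DESeq2 called 1 lower. The proton pump AHA3 had -1.95 (adjusted p = 0.0637) and SUC2 1.34 with overlapping groups. Of the 7 endodermis and cortex, 6 root hair and epidermis and 5 root cap markers tested, none separated the groups. For the counts that follow, the shares of all tested genes were 17.7% higher and 14.5% lower without overlap. Procambium genes (12 tested) were higher in 1 and lower in 1 (8.33% each), and auxin genes (29) in 3 and 3 (10.3% each). Plasmodesmata and callose genes (10) were higher in 2 (20%) and lower in 1 (10%). Cytokinin genes (14) were higher in 2 (14.3%) and lower in 4 (28.6%), and clock genes (11) in 0 and 3 (27.3%).

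**Figure D5:**
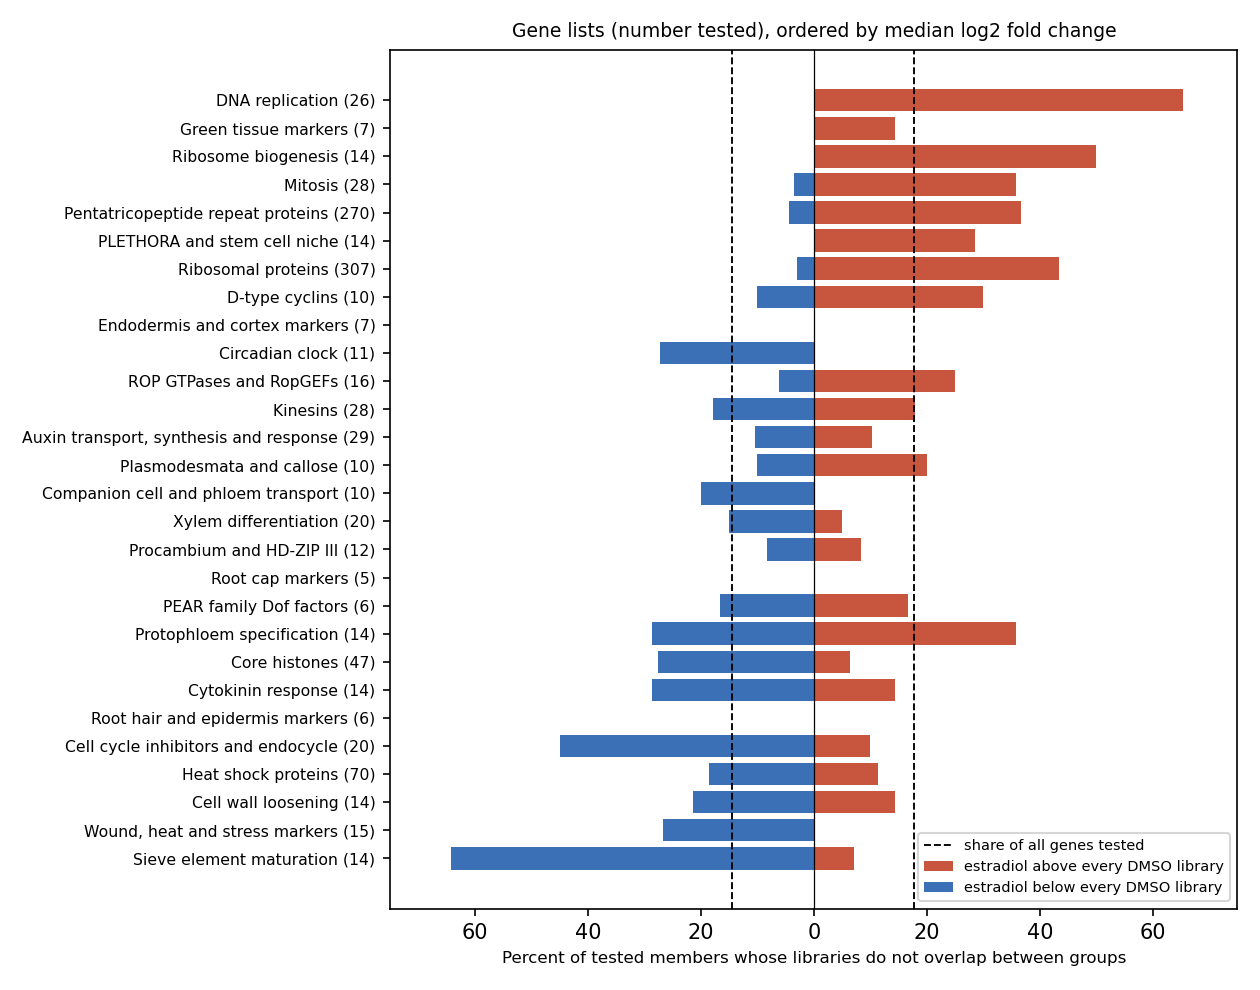
Percent of each list's tested genes (x axis) that were above every DMSO library in all estradiol libraries (red, right) or below every one (blue, left), with the number tested in brackets; dashed lines mark the shares of all tested genes, 17.7% and 14.5%. DNA replication reaches 65.4% on the right and sieve element maturation 64.3% on the left.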

How the data were processed

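RNA of the sorted cells was made into cDNA with a low-input kit and amplified by 18 PCR cycles without molecular identifiers, per the labels' protocols, so counts are not independent molecules. The deposited files hold raw counts per gene, made by the authors. Per the submitters' processing notes, TAIR10 was the build and Bowtie2 and featureCounts were among the tools, with no versions. The strand setting is not given in the sources used here, so overlapping genes cannot be told apart. FPKM tables of whole meristems were not used here.

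Counts were filtered with filterByExpr, scaled by TMM (factors 0.717 to 1.01 in DMSO, 1.15 to 1.28 in estradiol libraries) and tested with edgeR 4.0.16 (quasi-likelihood test, two-sided, no covariates) in R 4.3.3. Calls needed p under 0.05 after Benjamini-Hochberg adjustment over 24673 genes. The standard error is the log2 fold change divided by the square root of F. DESeq2 1.42.0 and limma 3.58.1 served as alternatives. The fit was tested on simulated data.

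Genes were named by rule: PLT2, then the 15 with the largest positive and the 15 with the largest negative fold change (called, with a symbol, groups apart, and averaging 5 CPM or more where higher), then list members. The genes, lists and tests were chosen with earlier results of these data known. The lists numbered 23 with 336 distinct genes, 320 of them tested; XTH22 is also counted as TCH4 and MP as ARF5. Ribosomal proteins were chosen by annotated product. Symbols and products came from the RefSeq TAIR10.1 annotation, which matched 32835 of 33602 genes.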

Additional observations from a re-analysis of the deposited data

How the results depend on the processing

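The number of called genes depended on the setting. Against 162 genes (64 higher, 98 lower), scaling by median-ratio size factors gave 92 (48 and 44), scaling by library totals 219 (149 and 70), limma-voom with sample quality weights 17 (7 and 10), no filter on low counts 626 (171 and 455), DESeq2 3070 (1157 and 1913), and edgeR's test against a log2 fold change of 1 in size gave 8 (8 and 0). A filter at 1 CPM in 3 libraries gave 149, a robust fit 148 and leaving out PLT2 151. Leaving out 1 library at a time gave 0 to 1833 genes in edgeR (0 to 564 higher, 0 to 1269 lower). The same in DESeq2, chosen after seeing the data, gave 5234 (2459 higher, 2775 lower), 1925 (760, 1165) and 3243 (1762, 1481) without DMSO 1, 2 and 4, and 1848 (524, 1324), 1304 (345, 959) and 1968 (556, 1412) without estradiol 1, 2 and 3. The smallest count in edgeR was without DMSO 2 (smallest adjusted p = 0.0560) and the largest without DMSO 1. The causes were not tested.

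Replicate numbers 1 and 2 occur in both groups, but no label ties them. With a replicate block edgeR called 1829 genes (570 higher, 1259 lower). Estradiol 3 and DMSO 4 are each alone in a block, so the estradiol effect in that fit rests on numbers 1 and 2 only. The deviations of same-numbered libraries from their group's mean correlated at 0.176 for number 1 and -0.066 for number 2. Pairs with unlike numbers ran from -0.336 to 0.282. Deviations within such small groups depend on one another, so these values cannot show whether same-numbered libraries were handled together.

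For 346 named or listed genes over up to 15 settings, no log2 fold change of a called gene reversed; 234 comparisons lost the call and 162 gained it. Scaling by library totals turned the medians of 7 lists: protophloem specification (-0.21 to 0.35), PEAR family (-0.18 to 0.39), cytokinin response (-0.34 to 0.19), root cap (-0.08 to 0.37), procambium (-0.005 to 0.53), core histones (-0.30 to 0.20) and heat shock proteins (-0.57 to 0.02). With 1 library left out, the protophloem median ran from -0.38 to -0.0044 and the PEAR median from -0.32 to 0.05, and counts of several hormone and tissue lists moved by over 1.5 times. No firm statement is made for genes averaging under about 1 CPM in both groups, such as PLT7 and WOX5. The sizes of rises from under 1 CPM in DMSO, such as those of MLS, NUC-L2 and ROP9, rest on few DMSO reads.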
